A study of Mus musculus with 6 samples.

Results

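The genes described here make, break down and sense hydroxylated cholesterols (oxysterols) in cultured enteric glial cells (EGCs), which surround the neurons of the gut. Rows of the count tables were taken by gene symbol for the 4 enzyme genes Ch25h, Cyp27a1, Cyp7b1 and Hsd3b7 and for the receptor gene Gpr183, that is 5 of 46603 gene identifiers. The EGCs were grown from neurospheres that had been prepared from the whole intestine of E14.5 embryos (C57BL/6J mice), so a culture may hold more cell types than glia. There were 3 control cultures without treatment and 3 cultures treated with lipopolysaccharide (LPS, a component of the bacterial cell wall) at 100 ng/ml for 12 h, and no other agent or allele is given for either group. Poly(A) RNA was sequenced to between 18775316 and 23664312 counts per library. The labels number the cultures 1 to 3 in each group without saying whether these were separate preparations, so the spread between them may be technical.

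Oxysterols are cholesterol molecules that carry an added hydroxyl group. Ch25h encodes cholesterol 25-hydroxylase, an enzyme of the endoplasmic reticulum that makes 25-hydroxycholesterol and is a known interferon-inducible gene of macrophages. Cyp7b1, an oxysterol hydroxylase, adds a further hydroxyl group and so makes the dihydroxy ligand of GPR183 (also called EBI2), a G protein-coupled receptor that guides the movement of B cells, dendritic cells, T cells and innate lymphoid cells. Hsd3b7 encodes the dehydrogenase that oxidises this ligand to a sterol that the receptor does not recognise. Cyp27a1 encodes the mitochondrial sterol hydroxylase, which makes 27-hydroxycholesterol.

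The 5 genes were selected on their measured difference between LPS and control in these same libraries, among them the lower Gpr183 counts. Their differences between the groups are therefore a description of these 6 libraries and no independent evidence. Levels are given as CPM (counts per 1e6 counts, on library sizes corrected with TMM factors) and changes as log2 fold changes of LPS over control with the standard error (SE) from edgeR.

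The 250 bases before the RefSeq start site (GRCm38.p6) are shown for the gene with the largest increase, Ch25h, and the gene with the largest decrease, Gpr183. They are read 5′ to 3′ on the strand of the gene, which is the minus strand for both. Capitals mark a match to the TATA box letters TATAAA.
Ch25h, chr19:34475149-34475398: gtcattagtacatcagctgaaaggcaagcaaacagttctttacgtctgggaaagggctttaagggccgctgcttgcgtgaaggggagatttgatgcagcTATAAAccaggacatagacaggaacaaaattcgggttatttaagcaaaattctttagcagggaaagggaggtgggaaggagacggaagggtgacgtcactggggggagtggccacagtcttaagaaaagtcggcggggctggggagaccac
Gpr183, chr14:121965194-121965443: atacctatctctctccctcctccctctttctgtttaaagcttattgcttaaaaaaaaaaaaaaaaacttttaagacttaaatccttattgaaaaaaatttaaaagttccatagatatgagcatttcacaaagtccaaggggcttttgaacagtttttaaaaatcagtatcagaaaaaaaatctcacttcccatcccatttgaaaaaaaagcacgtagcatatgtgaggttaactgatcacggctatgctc
The Ch25h window held TATAAA once, at bases -151 to -146 from the start, letters that 12.4% of 32841 windows of the same length held on either strand. Neither window held the interferon-stimulated response element (GAAA, 2 bases of any kind, then GAAA; 2.98% of windows), the NF-κB motif (7.25%), the AP-1 motif TGANTCA (6.75%), the PU.1 core GAGGAA (23.3%) or the sterol response element letters TCACNCCAC (1.05%) on either strand. A match describes letters, not a site, and the absence of a match says only that these letters are not in the window. The Gpr183 window was 32% G and C, and 2.36% of windows were lower, against 50.4% for Ch25h and a median of 52.4%. Of the 5 genes, 4 matched the RefSeq window table and Cyp7b1 did not. The Hsd3b7 window held the NF-κB motif, at bases -189 to -180, and the Cyp27a1 window held none of the 6 motifs.

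Synthesis of 25-hydroxycholesterol was examined first. Ch25h (ENSMUSG00000050370, chromosome 19, 34473778 to 34475164, GRCm38, minus strand) is a protein-coding gene with a single exon of 1387 bases. It was at 11.2, 11.2 and 26.7 CPM in control replicates 1, 2 and 3, and at 167, 180 and 128 CPM in LPS replicates 1, 2 and 3. The lowest LPS culture thus lay well above the highest control culture, and both the highest control and the lowest LPS value were those of replicate 3. The group means were 16.4 ± 8.98 and 158 ± 27.1 CPM (± SD over 3 cultures a group), a log2 fold change of 3.27 (SE 0.41), or 9.67-fold. Among 15226 tested genes, Ch25h ranked 280th from the highest fold change, and its level moved from percentile 44.3 in control to percentile 91 in LPS.

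On the opposite strand, the divergent noncoding gene Gm26902 shares 159 exon bases with Ch25h. It was at 1.36, 1.68 and 2.6 CPM in control and at 11.3, 12.6 and 6.28 CPM in LPS replicates 1, 2 and 3, with no overlap between the groups. Its log2 fold change was 2.41 (SE 0.37, edgeR adjusted p = 0.0131). The call was lost on leaving out replicate 1 or 2 of either group, with log2 fold changes from 2.22 to 2.35 and adjusted p-values up to 0.0788, and over all 16 alternatives the edgeR, DESeq2 and limma adjusted p ranged from 7.06e-08 to 0.0788. The library kit marks strand but the strand setting of the counting was not given, so reads of the shared stretch could not be assigned to one gene with certainty. Gm26902 was named after its values were seen.

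The second hydroxylase, Cyp27a1 (ENSMUSG00000026170, chromosome 1, 74713574 to 74737892, plus strand, 7 exon blocks), stood at a lower level. It was at 5.08, 4.78 and 5.54 CPM in controls 1, 2 and 3, against 1.28, 0.836 and 2.83 CPM in LPS replicates 1, 2 and 3. All LPS values were below all control values, and the control cultures lay close together. The means were 5.13 ± 0.381 and 1.65 ± 1.04 CPM (± SD over 3 cultures a group), with a log2 fold change of -1.63 (SE 0.44). This was not called with all 6 libraries, and it was called with the replicate number as a block, at -1.75 (SE 0.34), and without LPS replicate 3, at -2.27 (SE 0.26). Cyp27a1 was also called with upper-quartile factors, library size alone, DESeq2, the edgeR exact test, limma-voom and without both libraries numbered 3, that is in 8 of 16 alternatives.

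**Figure D1:**
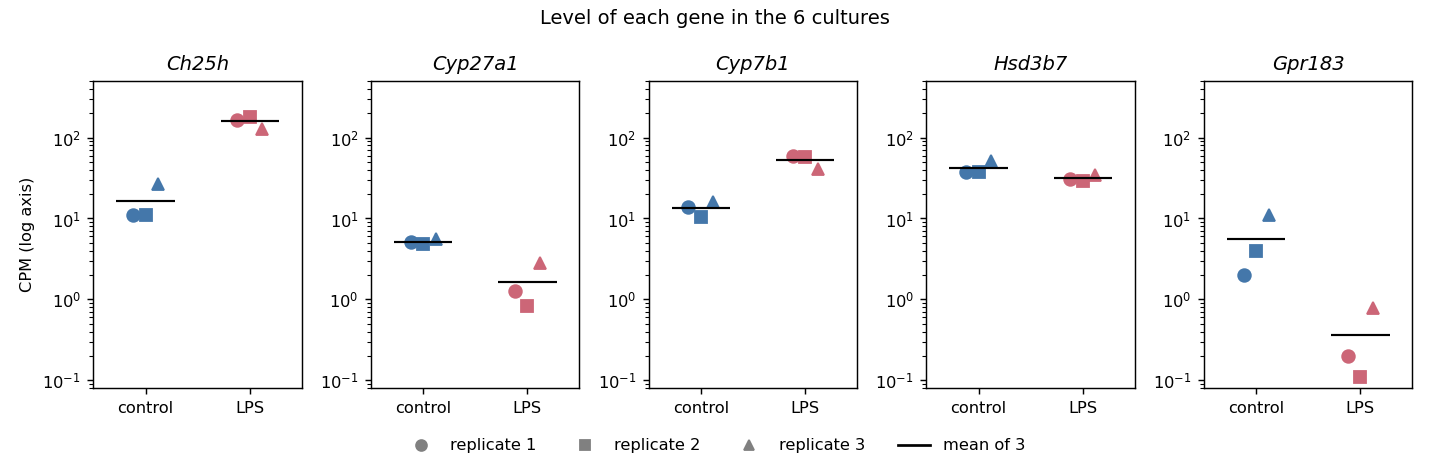
Level of each gene in CPM on a log axis, in control cultures (blue) and LPS cultures (red), with the replicate number given by the symbol and the group mean by the line. Ch25h and Cyp7b1 were higher in each LPS culture than in any control culture, and Cyp27a1, Hsd3b7 and Gpr183 were lower.

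Next, the enzymes that make and remove the GPR183 ligand were compared. Cyp7b1 (ENSMUSG00000039519, chromosome 3, 18071950 to 18243338, minus strand, 6 exon blocks) was at 13.9, 10.4 and 16 CPM in controls 1, 2 and 3, against 59.9, 58.2 and 40.4 CPM in LPS replicates 1, 2 and 3. The groups were well apart, and replicate 3 again gave the highest control and the lowest LPS value. The means were 13.4 ± 2.8 and 52.8 ± 10.8 CPM (± SD over 3 cultures a group), a log2 fold change of 1.98 (SE 0.23), or 3.94-fold. Hsd3b7 (ENSMUSG00000042289, chromosome 7, 127800604 to 127803802, plus strand) was at 37.5, 37.5 and 50.7 CPM in controls 1, 2 and 3, against 31, 28.9 and 34.9 CPM in LPS replicates 1, 2 and 3. Its groups were separated by a narrow gap. The means of Hsd3b7 were 41.9 ± 7.59 and 31.6 ± 3.04 CPM (± SD over 3 cultures a group), with a log2 fold change of -0.41 (SE 0.15) that was not called with all 6 libraries. With the replicate block Hsd3b7 was called at -0.40 (SE 0.08).

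The counts of Hsd3b7 carry a limit. In the GENCODE M21 annotation its exons share 1717 bases with the same-strand gene Gm49388 and 1729 bases with 9430064I24Rik on the other strand, and neither of these was a row of the count tables. Of the 31-base words in Hsd3b7 transcripts, 88.8% also occurred in other annotated genes. The share was 9.51% for Ch25h, all with Gm26902, and 0 for Cyp27a1, Cyp7b1 and Gpr183.

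On the scale of CPM per kilobase of exon, which allows levels to be compared between genes, the order of the enzymes differed between the groups. In control the level of Hsd3b7 was 15.1 ± 2.74, that of Ch25h 11.8 ± 6.47, that of Cyp7b1 6.19 ± 1.29 and that of Cyp27a1 2.36 ± 0.175 CPM per kilobase (SD, n = 3). Gpr183 was lowest at 1.95 ± 1.62 CPM per kilobase (SD, n = 3). The control ranges of Hsd3b7 and Ch25h overlapped, as did those of Cyp27a1 and Gpr183, so these neighbours could not be ordered. Without control replicate 1, Gpr183 took place 4 and Cyp27a1 place 5.

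In LPS the order was Ch25h at 114 ± 19.5, Cyp7b1 at 24.4 ± 4.99, Hsd3b7 at 11.4 ± 1.1, Cyp27a1 at 0.759 ± 0.48 and Gpr183 at 0.126 ± 0.127 CPM per kilobase (SD, n = 3). The ranges of neighbours did not overlap there. Within a library, the ratio of Cyp7b1 to Hsd3b7 on this scale was 0.472, 0.355 and 0.402 in controls 1, 2 and 3, against 2.47, 2.57 and 1.48 in LPS replicates 1, 2 and 3. The ratio was thus above 1 in every LPS culture and in no control culture. Because most of the Hsd3b7 exon sequence is shared with genes that were not counted, its level per kilobase may be misstated, and so may the ratios and its place in the order. The ratio of Ch25h to Hsd3b7 lay between 0.594 and 1.05 in control and between 7.33 and 12.5 in LPS.

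**Figure D2:**
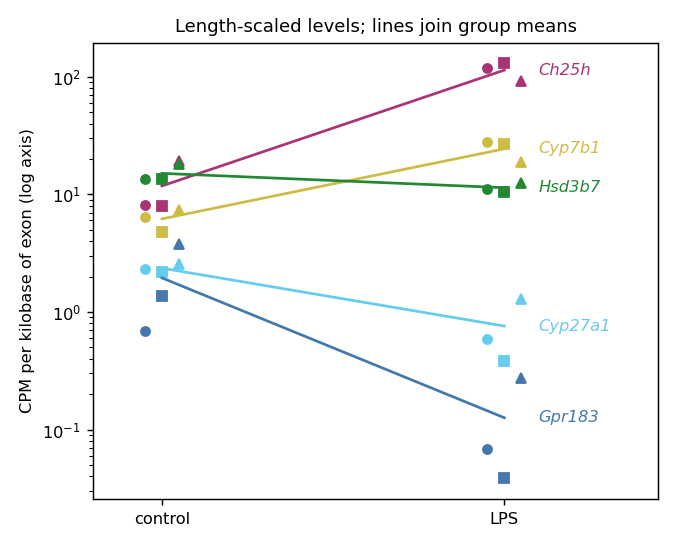
CPM per kilobase of exon on a log axis for the 5 genes, with 1 symbol per culture (circle, square and triangle for replicates 1, 2 and 3) and lines between the group means. Hsd3b7 had the highest mean in control at 15.1, but its control range overlapped that of Ch25h, and its level may be misstated because of shared exon sequence. Ch25h was highest in LPS at 114.

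The receptor moved the opposite way to Ch25h. Gpr183 (ENSMUSG00000051212, chromosome 14, 121952551 to 121965195, minus strand, 3 exon blocks) lies inside Ubac2, which is on the opposite strand and shares no exon base with it. It had 47, 90 and 264 counts in controls 1, 2 and 3, against 4, 2 and 15 counts in LPS replicates 1, 2 and 3. In CPM these were 1.99, 3.98 and 10.9 in control and 0.198, 0.111 and 0.785 in LPS. All LPS values were below all control values, but the controls themselves spread widely, with replicate 3 at 3.65 times the mean of replicates 1 and 2. The LPS replicate 2 value was under the detection floor of 3 counts, which in that library was 0.167 CPM.

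The means of Gpr183 were 5.63 ± 4.68 and 0.365 ± 0.367 CPM (± SD over 3 cultures a group), a log2 fold change of -3.92 (SE 0.94), or 15.2-fold lower. It ranked 11th from the lowest fold change among 15226 tested genes. Gpr183 passed the count filter through the control group, with 3 control libraries and 1 LPS library over its limit of 0.474 CPM, whereas the 4 enzymes passed in all 6 libraries. Matched by replicate number, control exceeded LPS by 10.1-fold (3.68 to 38.5), 35.7-fold (9.61 to 300.0) and 13.9-fold (8.27 to 25.2) for replicates 1, 2 and 3, with exact 95% intervals in brackets that cover counting error only. The call for Gpr183 moved with single libraries. It was lost without control replicate 1, 2 or 3 (-4.32, -4.12 and -2.99) and without LPS replicate 1 or 2 (-3.62 and -3.51), and was kept without LPS replicate 3 (-5.12). With the replicate block Gpr183 stood at -3.94 with an SE of 0.34. The host gene Ubac2 had a mean of 30.6 ± 0.649 CPM without and 36.3 ± 3.79 CPM with LPS (± SD over 3 cultures a group) and was not called (log2 fold change 0.25, edgeR adjusted p = 0.145).

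Counted together, 3 of the 5 genes were called at an adjusted p under 0.05 by the edgeR quasi-likelihood test, Ch25h and Cyp7b1 higher and Gpr183 lower, where 15.8% of all tested genes were called. All 5 had groups that did not overlap, against 38.7% of all tested genes. With the replicate block all 5 were called, against 30.3% of tested genes. Nothing is read from these shares, because the genes were chosen with this comparison known. Without both libraries numbered 3, an alternative chosen after seeing the data, all 5 were also called, where 43.0% of tested genes were, with log2 fold changes of 3.98 for Ch25h, 2.30 for Cyp7b1, -0.30 for Hsd3b7, -2.18 for Cyp27a1 and -4.17 for Gpr183.

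**Figure D3:**
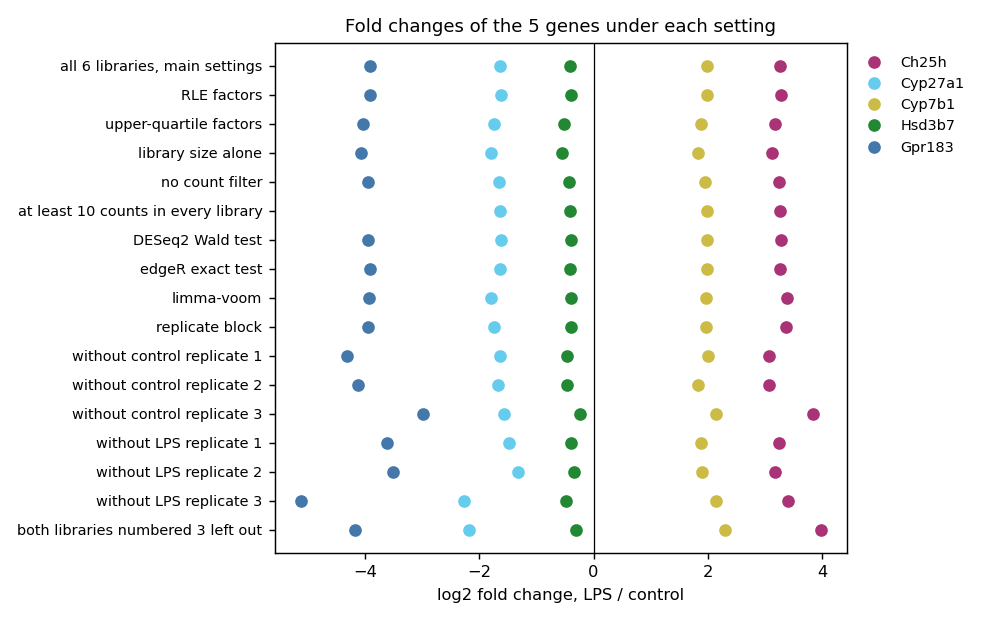
Log2 fold change of LPS over control for each gene with all 6 libraries and under each alternative (rows). No gene changed direction, and Gpr183 ranged most, from -5.12 to -2.99, and has no value where at least 10 counts were required in every library.

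The cultures numbered 3 differed from the others by unequal amounts. Control replicate 3 had the highest control value of all 5 genes, as it had for 42.7% of tested genes, from 1.12 times the mean of controls 1 and 2 for Cyp27a1 to 3.65 times for Gpr183. Against the control mean, LPS replicate 3 differed least of the 3 LPS cultures for all 5 genes, as for 44.1% of tested genes and 49.1% of called genes. Between same-numbered cultures the order differed from gene to gene, and the sign was the same in all 3 pairs of each gene: on log2 CPM with a prior count of 2, LPS minus control was 3.88, 4.0 and 2.26 for Ch25h, 2.10, 2.47 and 1.34 for Cyp7b1, -1.91, -2.39 and -0.95 for Cyp27a1, -0.27, -0.37 and -0.54 for Hsd3b7, and -2.84, -4.31 and -3.65 for Gpr183 in replicates 1, 2 and 3. Replicate 3 thus had the smallest difference for Ch25h, Cyp7b1 and Cyp27a1, the largest for Hsd3b7 and neither for Gpr183.

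Gpr183 is best known from leukocytes, so markers of other cell types were set beside it. The 12 macrophage markers summed to 4145, 5364 and 12678 CPM in controls 1, 2 and 3, against 4050, 5246 and 20142 CPM in LPS replicates 1, 2 and 3, and 11 of them were above the floor in all libraries (Cx3cr1 was at the floor in LPS replicate 2). All 12 were highest in control replicate 3 among the controls, as Gpr183 and 42.7% of all tested genes were. Between the groups the markers went different ways. The sum is mostly Lyz2, a lysozyme of myeloid cells, at 2888, 3490 and 7978 CPM in controls 1, 2 and 3, against 2385, 3069 and 11480 CPM with LPS. With all 6 libraries the edgeR quasi-likelihood test called 1 of the 12 markers, Adgre1, higher, where 9.09% of all tested genes were called higher and 6.71% lower. With the replicate block it called 3 higher (Adgre1, Ptprc and Fcgr1) and 3 lower (Mrc1, Cx3cr1 and Cd68), where it called 15.4% of all tested genes higher and 14.9% lower. Mrc1, Cx3cr1 and Cd68 were lower with LPS in every same-numbered pair, as Gpr183 was, and Adgre1, Ptprc, Fcgr1 and Itgam were higher in every pair. Adgre1, which encodes the macrophage antigen F4/80, rose from 159, 229 and 472 CPM in controls 1, 2 and 3 to 952, 1261 and 3700 CPM with LPS (log2 fold change 2.78, SE 0.68, edgeR adjusted p = 0.0452). Mrc1, the macrophage mannose receptor, was at 197, 331 and 752 CPM in controls 1, 2 and 3, against 9.29, 10.4 and 131 CPM with LPS (log2 fold change -3.08, SE 1.22, not called; -3.92, SE 0.56, with the block). Cx3cr1 had a blocked log2 fold change of -3.16 (SE 0.53) and Cd68 of -0.86 (SE 0.07). The T cell and innate lymphoid list summed to 12.5, 13.5 and 28.7 CPM in control and 6.77, 5.24 and 5.91 CPM in LPS, mostly Il7r, and its defining genes Cd3e, Cd3d and Cd3g were at 0 in all libraries. Il7r, a cytokine receptor chain of lymphoid cells, fell from 9.92, 10.6 and 26.3 CPM in control replicates 1, 2 and 3 to 3.66, 3.07 and 4.14 CPM in LPS (log2 fold change -2.11, SE 0.44, edgeR adjusted p = 0.0291).

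Of 6 dendritic cell markers, Flt3, Xcr1, Clec9a and Cd209a were at the floor throughout, and the list summed to between 12.4 and 21.1 CPM in control and between 7.21 and 10 CPM in LPS, mostly Zbtb46. Itgax, an integrin chain of dendritic cells and macrophages, was at 1.86, 3.28 and 10.3 CPM in controls 1, 2 and 3, against 0.741, 0.613 and 2.41 CPM with LPS. Among the controls it was highest in replicate 3, as Gpr183 and 42.7% of all tested genes were. It was not called with all 6 libraries (log2 fold change -2.03, SE 0.83) and was called lower with the block (-1.96, SE 0.26). The B cell markers Cd79a and Ms4a1 were at the floor in all libraries, Cd79b had 6, 5 and 5 counts in controls 1, 2 and 3, against 0, 4 and 14 counts with LPS, and Pax5 had 1, 1 and 0 counts in the controls, against 53, 44 and 32 counts with LPS. Glial markers (6 of 6 above the floor in all libraries) summed to between 261 and 374 CPM in control and between 300 and 317 CPM in LPS. Among them S100b was called lower (log2 fold change -1.91). Mesenchymal markers summed to between 7266 and 7927 CPM in control and between 7849 and 8512 CPM in LPS, mostly Col1a1, with Dcn (0.90) and Pdgfra (0.50) called higher and Lum called lower with the block only (-0.75). Smooth muscle markers summed to between 1232 and 1448 CPM in control and between 237 and 436 CPM in LPS, and all 4 were called lower, where 6.71% of all tested genes were. In bulk RNA, fewer cells of a type and less RNA per cell cannot be told apart, and the part of any cell type in the Gpr183 difference was not tested.

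**Figure D4:**
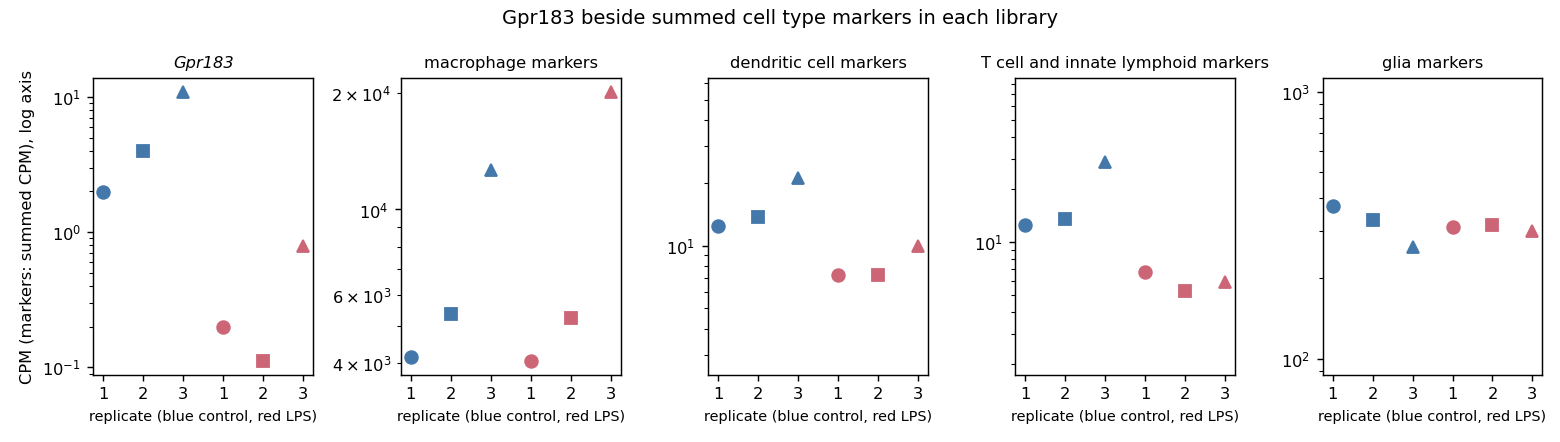
Gpr183 in CPM and summed CPM of 4 marker lists in each library, on log axes that differ between panels (blue control, red LPS; replicate number on the horizontal axis). Replicate 3 had the highest macrophage sum in both groups (12678 and 20142 CPM). The sum is mostly Lyz2, and its members went both ways, with Mrc1, Cx3cr1 and Cd68 lower and Adgre1, Ptprc, Fcgr1 and Itgam higher with LPS in every same-numbered pair.

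By pattern over the 6 libraries, the genes most like Gpr183 were 2610044O15Rik8, Crip1, Galc, Trpm7 and Atp6v1a, with Pearson r from 0.9965 to 0.9979 on log2 CPM among 14059 genes with at least 1 CPM on average. The likeness is of shape, not of size: against -3.92 for Gpr183, their log2 fold changes were -0.21, -1.43, -1.40, -0.31 and -0.39 in that order, of which Crip1 and Galc were called, and both lost the call without replicate 1 or 2 of either group (Galc also without control replicate 3). The genes most like Ch25h were Tnfrsf9, Timp1, Cxcl16, Gpr176 and Ifnar2, with r from 0.9972 to 0.9995. Timp1, an inhibitor of matrix metalloproteinases, went from 129, 122 and 315 CPM in control to 1849, 2077 and 1666 CPM in LPS, so control replicate 3 was highest for it as for Ch25h. Cxcl16, a chemokine, went from 49.2 ± 27 to 368 ± 38.8 CPM (± SD over 3 cultures a group). These correlations are a description over libraries that share a grouping and the same numbering.

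The other genes of oxysterol biology were examined in lists by function. Of 17 other oxysterol and bile acid enzymes, 9 passed the count filter, 0 were called higher and 2 lower (Amacr and Hsd17b4), where 9.09% of all tested genes were called higher and 6.71% lower, with a median log2 fold change of -0.23 against -0.02 for all tested genes. The count of 0 higher by the edgeR quasi-likelihood test stood beside 1 gene higher at an unadjusted p under 0.05 and 0 called higher by DESeq2, the edgeR exact test and limma-voom. The replicate block called 1 higher and 4 lower, where it called 30.3% of all tested genes. Amacr, a racemase of bile acid intermediates, fell from 16.4, 15.5 and 10.7 CPM in control replicates 1, 2 and 3 to 8.6, 7.19 and 8.27 CPM in LPS (log2 fold change -0.82, SE 0.19, edgeR adjusted p = 0.0412). Hsd17b4, a peroxisomal enzyme of side chain shortening, fell from 121 ± 7.81 to 91 ± 5.61 CPM (± SD over 3 cultures a group; log2 fold change -0.41, SE 0.08, edgeR adjusted p = 0.0284). The genes of liver bile acid synthesis Cyp7a1, Cyp8b1, Akr1d1 and Baat did not pass the filter.

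Of 21 oxysterol sensors and target genes of the LXR receptors, the nuclear receptors that oxysterols activate, 19 had enough counts to be tested; 0 of these were called higher and 1 lower, again beside 9.09% and 6.71% of all tested genes. At an unadjusted p under 0.05 the edgeR test had 3 higher, and DESeq2 and the edgeR exact test each called 1 higher and limma-voom 0. The median log2 fold change was 0.12. Pltp, a phospholipid transfer protein, fell from 153 ± 21.5 to 86.9 ± 20.9 CPM (± SD over 3 cultures a group; log2 fold change -0.82, SE 0.20, edgeR adjusted p = 0.0435). The replicate block called 2 higher and 2 lower, beside its 30.3% of all tested genes. Without replicate 1 or 2 of either group, 0 were called in either direction. Without LPS replicate 3, 3 were called higher and 2 lower, where 1964 and 1426 of 15626 tested genes were. Without both libraries numbered 3, 8 were called higher and 3 lower, where 22.6% and 20.4% of all tested genes were. The largest estimate of the list was that of Nr1h3, which encodes an LXR receptor and was named after its values were seen. It was at 8.86, 7.44 and 5.83 CPM in controls 1, 2 and 3, against 17.4, 14.3 and 56.5 CPM with LPS, and was not called (log2 fold change 2.0, SE 0.57).

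Genes of sterol synthesis and uptake, which the factor SREBP2 drives and 25-hydroxycholesterol is known to restrain, were the list with higher calls. All 20 passed the filter and 5 were called higher (25%) and 0 lower, where 9.09% of tested genes were called higher and 6.71% lower. The count of 0 lower was also 0 at an unadjusted p under 0.05 in edgeR and by DESeq2, the edgeR exact test and limma-voom. The median log2 fold change was 0.33, and all 20 estimates were above 0 with TMM factors, while 18 were with upper-quartile scaling and 16 when only library size was used. Lss, lanosterol synthase, rose from 78.6, 79.6 and 81.1 CPM in control to 120, 120 and 114 CPM in LPS (log2 fold change 0.56, SE 0.06, edgeR adjusted p = 0.00443). Fdft1, squalene synthase, rose from 88.9 ± 2.64 to 127 ± 6.71 CPM (± SD over 3 cultures a group; log2 fold change 0.52, edgeR adjusted p = 0.00909), and Hsd17b7 from 75.3 ± 1.92 to 112 ± 10.1 CPM (0.57, adjusted p = 0.0123). Mvd was also called higher (0.43, edgeR adjusted p = 0.0372), which the rule for naming genes did not reach and which was named after its value was seen. It was called in 7 of 16 alternatives, with adjusted p-values (edgeR, DESeq2 or limma) from 0.000914 to 0.153.

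These calls moved with single libraries. The number called higher in the sterol synthesis list was 2 without control replicate 1, 1 without control replicate 2, 3 without LPS replicate 1, 2 without LPS replicate 2 and 8 without LPS replicate 3. With the replicate block it was 9, where 15.4% of all tested genes were called higher, and without both libraries numbered 3 it was 15, where 22.6% were (20.4% lower). The calls for Amacr, Hsd17b4 and Pltp were each lost on leaving out replicate 1 or 2 of either group, with edgeR adjusted p-values up to 0.153, 0.116 and 0.151, while over all 16 alternatives their lowest values were 0.00129, 0.00184 and 4.3e-05. Amacr also lost its call without LPS replicate 3, and Hsd17b4 without control replicate 3.

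**Figure D5:**
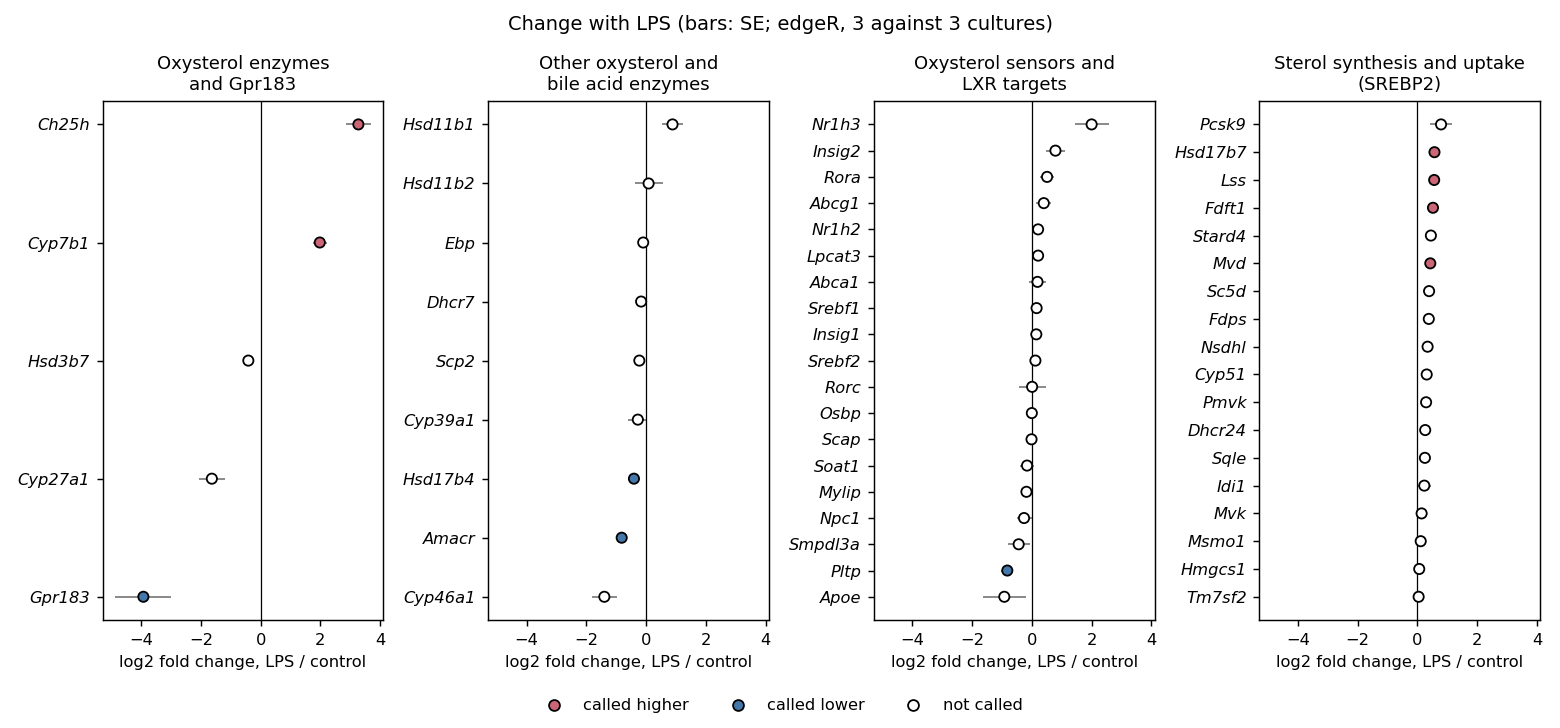
Log2 fold change of LPS over control (horizontal axis, bars give the SE) for the 5 genes and the tested genes of the 3 lists that are reported here, with genes called higher in red, called lower in blue and not called in white. The 5 genes spread from -3.92 to 3.27, whereas the sterol synthesis genes lay close to their median of 0.33.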

How the data were processed

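Per the labels, total RNA of the 6 cultures was poly(A)-selected and sequenced with a stranded kit, and the authors deposited whole-number counts per gene and library (not normalized). The submitters' processing notes name cutadapt 1.15, Bowtie2 2.3.3.1, STAR 2.5.2b, SAMtools 1.5 and featureCounts 1.5.3, and the strand setting of the counting was not given in the sources used here. A deposited table of all libraries held the same counts as the single-library files and was not used.

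Low-count genes were dropped first (edgeR filterByExpr, minimum count 10, minimum total 15), which left 15226 of 46603 identifiers. Groups were compared with the edgeR 4.0.16 quasi-likelihood test (R 4.3.3) with TMM factors (0.917 to 1.08), two-sided, with Benjamini-Hochberg adjustment over all tested genes and a threshold of 0.05. A gene was called where its adjusted p was under that threshold. CPM used the TMM-corrected library sizes. Loci came from GENCODE M21 (GRCm38), which held 46091 of the identifiers, and exon length was the union of exons. In 1 simulated set of counts, the share of unchanged genes among the calls was above the threshold for every test but the replicate block. It was highest for DESeq2 and the edgeR exact test. These counts were simulated without any effect of replicate number, so they cannot judge the block on the real libraries. The floor of 3 counts was 0.124 to 0.167 CPM, and floors and counting intervals cover counting error only. No 2 libraries were identical.

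Deviations from the group means correlated between same-numbered libraries (r = 0.513, 0.334 and 0.613 for numbers 1, 2 and 3). The main test did not pair the libraries. The numbers were used as pairs only in the replicate block and where same-numbered cultures were compared. This pairing is a hint from the data, since the labels do not say what a number stands for. Replicate 2 did not correlate best with its own number. The alternatives were other scaling factors (RLE, upper quartile, library size alone), other count filters, DESeq2 1.42.0, the edgeR exact test, limma-voom 3.58.1, a block on replicate number, and leaving out every library once. The genes and lists were chosen with earlier results of these data known. Beyond the 5 genes, the text names up to 4 called genes with at least 1 CPM per list and direction, the 5 genes whose log2 CPM correlated best with Gpr183 and with Ch25h, and marker lists of other cell types. Some members of these lists enter the counts but are not reported here by name.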

Additional observations from a re-analysis of the deposited data

How the results depend on the processing

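Over 24 single genes and 382 values under the alternatives, 0 changed direction, 57 lost a call, 24 gained one and 301 kept their side of the threshold; the cause was not tested. Ch25h and Cyp7b1 were called higher in all 16 alternatives (log2 fold changes of 3.07 to 3.98 and 1.83 to 2.30). Of the 5 genes, 1 was called lower with all libraries, 2 with upper-quartile factors, DESeq2 or the edgeR exact test, 3 with library size alone, and 0 of 4 where at least 10 counts were required in every library, a filter that removed Gpr183. Limma-voom did not call Gpr183 (-3.93). Leaving out 1 library gave 0 to 2 called lower. Paired by replicate number (replicate block), 3 of the 5 genes were called lower, and over all genes the block called 2343 higher and 2273 lower, against 1384 and 1022 without it; of the 48 tested genes of the 3 lists it called 12 higher and 6 lower, against 5 and 3. Over all genes DESeq2 called 2079 higher and 1673 lower, upper-quartile factors 1589 lower and library size alone 2054 lower. These scalings moved the median over all genes (log2 fold change) from -0.02 to -0.12 and -0.18. Library size alone called 6 list genes lower. Leaving out 1 library gave 379 to 1964 genes higher and 112 to 1426 lower over all genes, and 1 to 11 higher and 0 to 3 lower in the lists. Without both libraries numbered 3, chosen after seeing the data, 3498 genes were called higher and 3159 lower, 24 and 6 in the lists, and 3 of the 5 genes lower. In control, Cyp27a1 was in place 4 and Gpr183 in place 5 per kilobase, and these were 5 and 4 in CPM without length and without control replicate 1. Depth limits Gpr183 in LPS, with 2 to 15 counts per library.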

Other observations

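Among the markers read beside Gpr183, Pax5, a transcription factor of B cells, was at the floor in the controls and above it in LPS, although the B cell markers Cd79a and Ms4a1 were at the floor in all 6 libraries and Cd79b had at most 14 counts. Pax5 had 1, 1 and 0 counts in controls 1, 2 and 3, against 53, 44 and 32 counts in LPS replicates 1, 2 and 3, so it passed the count filter through the LPS group and had to differ. Zbtb46, a transcription factor of dendritic cells, went the other way, from 10.5 ± 0.136 to 6.84 ± 0.647 CPM (± SD over 3 cultures a group; log2 fold change -0.62, edgeR adjusted p = 0.0265). Both were singled out after their values were seen, and their part in other results was not tested.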
